A study of Mus musculus with 16 samples.

Results

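Genes of hepatic glucose output and glycogen turnover were followed in mouse liver under cadmium (Cd) and selenium (Se). The 10 genes Pck1, Fbp1, Pcx, Tat, Sds, Ppargc1a, Igfbp1, Gys2, Pygl and Slc2a2 were taken by symbol from a table of 57010 genes, and each symbol matched 1 row. Levels are given as TPM, read counts divided by transcript length and scaled to 1 common total in every library, so genes can be compared with each other within a library. All mice were C57BL/6J wild-type males, with 4 mice in each group. Their stated age is 8 to 12 weeks, and the diet is stated to begin at 8 weeks, so this is not the age at collection. The Cd group received CdCl2 by intraperitoneal injection, 1.25 mg/kg a day, during the final 7 days, and the Se group ate selenomethionine (SeMet), 2 ppm in the chow, for 3 months. The Cd+Se group received both and the control group neither. The vehicle given to mice without Cd, the feeding state at death and the hour of collection are not given in the sources used here. The study asked whether Se lessens Cd damage to liver and kidney, and each group here is liver tissue, in which fewer cells of a type and less RNA per cell cannot be told apart.

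Between meals the liver keeps blood glucose up, first by breaking down glycogen and then by gluconeogenesis, the synthesis of glucose from lactate, glycerol and amino acids. Glucagon, through cAMP and CREB, and glucocorticoids, through the glucocorticoid receptor, raise transcription of the enzymes. FOXO1 and the coactivator encoded by Ppargc1a take part, and insulin opposes these signals. Pcx encodes pyruvate carboxylase, which makes oxaloacetate from pyruvate in mitochondria. Pck1 encodes the cytosolic phosphoenolpyruvate carboxykinase that draws on this oxaloacetate, and Fbp1 encodes fructose-1,6-bisphosphatase, which acts further up the path. Tat (tyrosine aminotransferase) and Sds (serine dehydratase) turn amino acids into carbon for the path. Igfbp1 encodes a secreted binding protein of insulin-like growth factors that insulin represses. Gys2 and Pygl encode the liver forms of glycogen synthase and glycogen phosphorylase, and Slc2a2 encodes GLUT2, the glucose transporter of the hepatocyte membrane.

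Short promoter windows are shown for the members in which a motif of the fasting signals was found, because Pck1, Ppargc1a and Igfbp1 are known targets of these signals. The sequences come from RefSeq (GRCm38.p6), which gave 9 promoters for 8 of the 10 genes, each from 250 bases before to 50 bases after a transcript start. Both strands were searched for TGACG (the core of the CRE, the cAMP response element), AAACAA (FOXO core) and AGAACA (part of the glucocorticoid receptor element). The windows below are 30 bases long, run 5′ to 3′ on the gene's strand, and carry the match in capitals (CGTCA is TGACG on the other strand).
Pck1, chr2:173152970-173152999, plus strand, match 90 bases before the start: ggcctgccccttaCGTCAgaggcgagcctc
Ppargc1a, chr5:51567758-51567787, minus strand, match 49 bases before the start: aggtgccctcccaCGTCActgagctccagt
Pygl, chr12:70227711-70227740, minus strand, match 44 bases before the RefSeq start used, which lies inside the GENCODE gene given further on: ccccctgggggggCGTCActctgggagcca
Igfbp1, chr11:7197669-7197698, plus strand, match 106 bases before the start: agctcacaagcaAAACAAacttattttgaa
The CRE core was in 3 of the 9 member promoters and in 20.8% of all 32851 promoters, the FOXO core in 1 of 9 and 20.7%, and AGAACA in 0 of 9 and 19.0%. A match describes the sequence only.

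Mt1 and Mt2, the metallothionein genes that Cd induces, were read first as a check on the labels. Mt1 stood at 116 ± 73.3 TPM in control, 4066 ± 707 in Cd, 261 ± 158 in Se and 4880 ± 1274 in Cd+Se (SD, n = 4), and the mice injected with Cd lay wholly above the others. The libraries carried hepatocyte transcripts at high levels, with Alb from 22135 to 86649.8 TPM over the 16 mice. Mouse 5 of the Cd group held the lowest Alb value, the lowest median log2(TPM + 1) over the genes tested (2.68, against 2.90 to 3.36 in the other 15 mice) and the largest share of mitochondrially encoded transcripts (22.2%). Several values are also given without this mouse.

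In control livers Fbp1 was the most abundant of the 10 genes at 816 ± 66.1 TPM, followed by Pck1 at 717 ± 128 and Tat at 542 ± 90.9. Pygl (239 ± 23.6), Sds (209 ± 47.8), Gys2 (173 ± 23.9), Slc2a2 (137 ± 8.87) and Pcx (101 ± 8.58) formed a middle range. Igfbp1 stood at 26.4 ± 6.72 and Ppargc1a at 1.78 ± 0.135 TPM (SD, n = 4). In this order the mice of neighbouring genes overlapped from Fbp1 to Pck1, from Pck1 to Tat and from Pygl through Sds and Gys2 to Slc2a2, and the other neighbours did not overlap. In Cd livers the first place passed to Pck1 (1248 ± 122 TPM), with Tat at 808 ± 149 and Fbp1 at 514 ± 114. In the table as a whole Pck1 ranked 111 and Ppargc1a 9104 of 57010 by mean TPM.

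**Figure D1:**
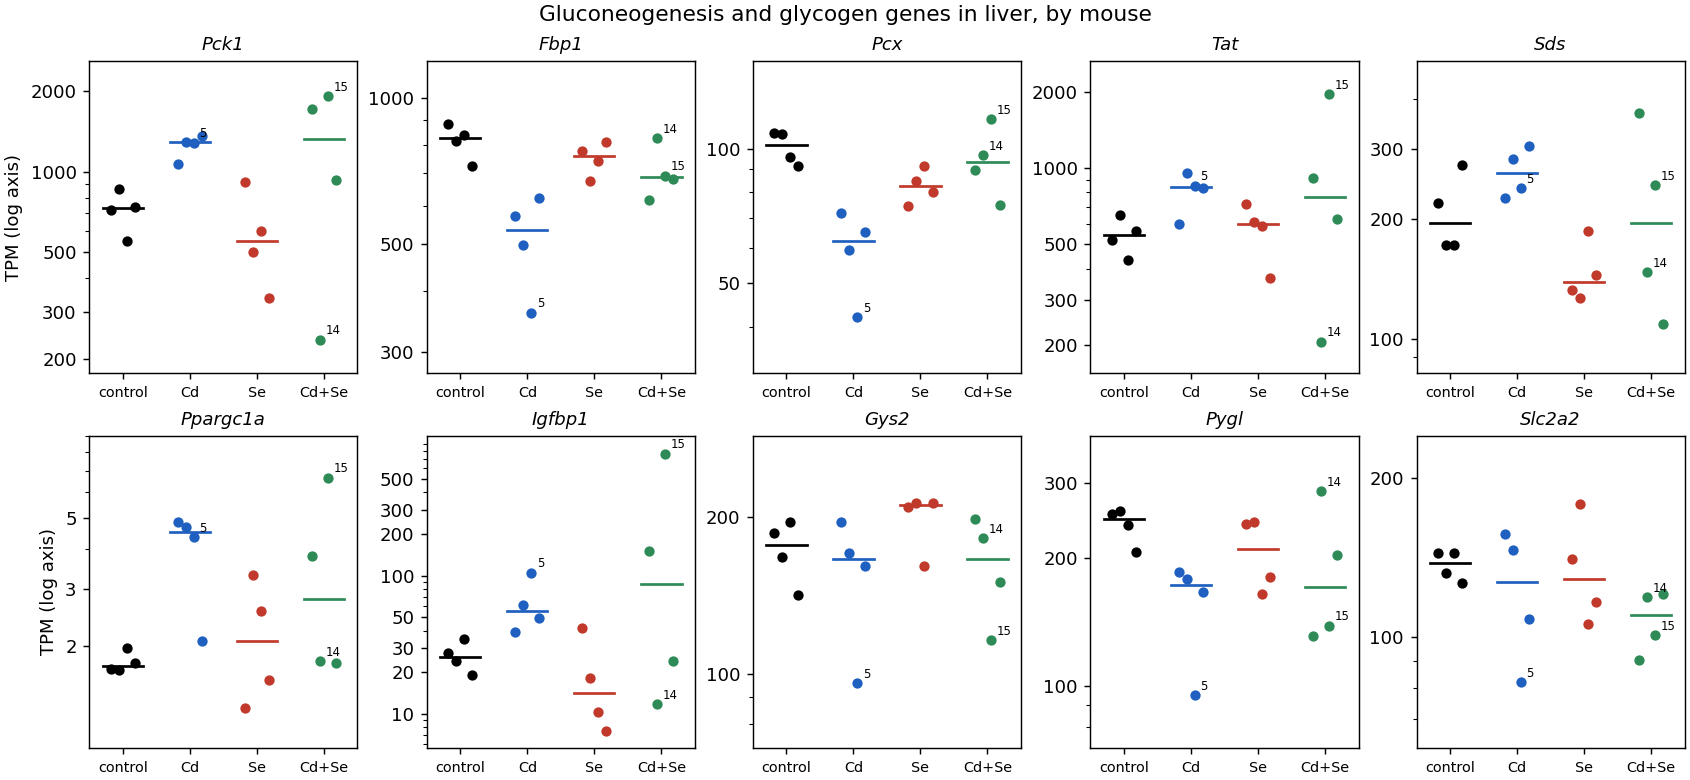
Levels of the 10 genes in TPM (log axes) for control, Cd, Se and Cd+Se livers, 1 point per mouse and a bar at the group median, with mice 5, 14 and 15 numbered. Fbp1, Pcx and Pygl lay wholly below control in the Cd mice, Pck1, Igfbp1 and Ppargc1a wholly above it, and Pck1, Tat and Igfbp1 were spread most widely in the Cd+Se mice.

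The comparison of Cd with control asked what Cd does in mice without the SeMet diet. Among the gluconeogenic enzymes Pcx and Fbp1 fell, and every Cd mouse held more Pck1 mRNA than any control mouse, a difference that did not pass the test. With limma on log2(TPM + 1) and Benjamini-Hochberg adjustment, 2 of the 10 genes passed an adjusted p of 0.05, both lower, against 30.8% of the 11766 genes tested (24.9% lower). Of all calls 81.1% were lower, a share that became 57.1% after quantile normalization and 44.4% after centring, and Fbp1 and Pcx were called lower under both. All 10 genes passed the filter of a mean of 1 TPM. The median log2 fold change of the 10 genes was 0.08, and that of all genes tested was -0.17. By mice alone, 3 of the 10 genes were wholly above control (6.44% of all genes) and 3 wholly below it (27.8%).

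Pcx (chromosome 19, 4510472 to 4621752) was at 108, 108, 95.6 and 91.3 TPM in the control mice and at 71.8, 59.4, 42.0 and 65.2 in the Cd mice. Every Cd mouse lay below every control mouse. Mean TPM in Cd were 0.592 times those in control, and the log2 fold change was -0.77 (SE 0.157, limma adjusted p = 0.00232). Without mouse 5, the lowest of the Cd mice, Pcx was still below control at -0.61 (limma adjusted p = 0.00559).

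Fbp1 (chromosome 13, 62864753 to 62888282) was at 884, 816, 838 and 726 TPM in control mice and at 572, 498, 362 and 623 in Cd mice. The groups did not overlap. The mean was 0.629 times that of control, with a log2 fold change of -0.69 (SE 0.148, limma adjusted p = 0.00315). Without mouse 5 it was -0.53 (limma adjusted p = 0.00622). Fbp1 and Pcx kept these calls in all 16 alternative fits, and neither reached a log2 fold change of 1 in size.

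Pck1 (chromosome 2, 173153048 to 173159273) was at 721, 861, 549 and 738 TPM in control mice and at 1071, 1289, 1281 and 1350.2 in Cd mice. The lowest Cd mouse was above the highest control mouse, and the mean was 1.74 times that of control. The log2 fold change of 0.81 (SE 0.475) gave a limma adjusted p of 0.207 in a model that pools the spread of all 4 groups, and the Cd+Se mice ranged from 237 to 1907 TPM. In a model of the control and Cd mice alone the same difference had an SE of 0.147 and a limma adjusted p of 0.00460.

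That model of 2 groups called 7 of the 10 genes in Cd, against 30.3% of all genes. Beside Pcx and Fbp1 these were Pck1, Igfbp1, Ppargc1a and Tat, higher, and Pygl, lower. Pck1, Igfbp1 and Tat passed only in this setting, and leaving out each control or Cd mouse in turn brought none of the 3 past the threshold in the model of 4 groups. The Se and Cd+Se mice, which also set the spread in that model, were not left out for this comparison.

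Tat, the tyrosine aminotransferase gene (chromosome 8, 109990437 to 109999803), was at 520, 652, 434 and 565 TPM in control mice and at 599, 953, 850.1 and 831 in Cd mice. Mouse 1 of the Cd group lay within the control range and the others above it. The log2 fold change was 0.57 (SE 0.453), with a limma adjusted p of 0.359 in the model of 4 groups and 0.0294 in that of 2. Sds, the serine dehydratase gene (chromosome 5, 120476526 to 120483932), ranged from 172 to 272 TPM in control and from 226 to 306 in Cd. The groups overlapped, and its log2 fold change was 0.35 (95% interval -0.25 to 0.95, limma adjusted p = 0.370).

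Ppargc1a (chromosome 5, 51454250 to 51567726), which encodes the coactivator PGC-1α, was at 1.69, 1.68, 1.97 and 1.76 TPM in control mice and at 4.85, 4.69, 4.35 and 2.06 in Cd mice. Mouse 6 was just above the control range and the other 3 Cd mice were far above it. The log2 fold change of TPM + 1 was 0.80 (SE 0.300), which understates the change of a gene this low, and the limma adjusted p was 0.0529. It was 0.0150 in the model of 2 groups, 0.0231 after quantile normalization, 0.0171 after centring, 0.0405 among protein-coding genes and 0.02145 without mouse 6. In the other 10 of 15 alternative settings Ppargc1a did not pass, with a limma adjusted p of up to 0.135. Without mouse 5 the log2 fold change was 0.75 (limma adjusted p = 0.120).

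Igfbp1 (chromosome 11, 7197782 to 7202546) was at 27.6, 23.9, 35.0 and 19.0 TPM in control mice and at 39.1, 60.9, 105 and 49.5 in Cd mice. All Cd mice were above control, mouse 5 farthest. The log2 fold change was 1.17 (SE 0.900), with a limma adjusted p of 0.341 in the model of 4 groups and 0.0129 in that of 2. Without mouse 5 it was 0.90 (limma adjusted p = 0.553 in the model of 4 groups).

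Neither glycogen gene passed the test in Cd in the model of 4 groups. Pygl, the phosphorylase (chromosome 12, 70190811 to 70231488), was at 254, 258, 239.6 and 206 TPM in control mice and at 185, 179, 95.1 and 166 in Cd mice. The groups did not overlap, and the log2 fold change was -0.65 (SE 0.244, limma adjusted p = 0.0529). It passed the threshold in the model of 2 groups (0.0333), after quantile normalization (0.0341), with a higher filter (0.0474), among protein-coding genes (0.0417) and without mouse 1 (0.0437), whereas without mouse 5, the lowest Cd mouse, the log2 fold change was -0.43 (0.183). Gys2, the synthase (chromosome 6, 142422613 to 142473109), ranged from 142 to 196 TPM in control and from 95.9 to 196 in Cd, with a log2 fold change of -0.18 (95% interval -0.62 to 0.25, limma adjusted p = 0.525). Slc2a2, the GLUT2 gene (chromosome 3, 28697903 to 28731359), ranged from 126 to 144 TPM in control and from 82.1 to 157 in Cd, with a log2 fold change of -0.19 (95% interval -0.60 to 0.22, limma adjusted p = 0.476). The Cd mice overlapped control for both genes, and both log2 fold changes turned above 0 when libraries were centred on their medians (0.04 and 0.03). Without mouse 5 they were 0.03 for Gys2 and -0.01 for Slc2a2. All positions are those of GENCODE M21 (GRCm38), matched by Ensembl identifier.

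**Figure D2:**
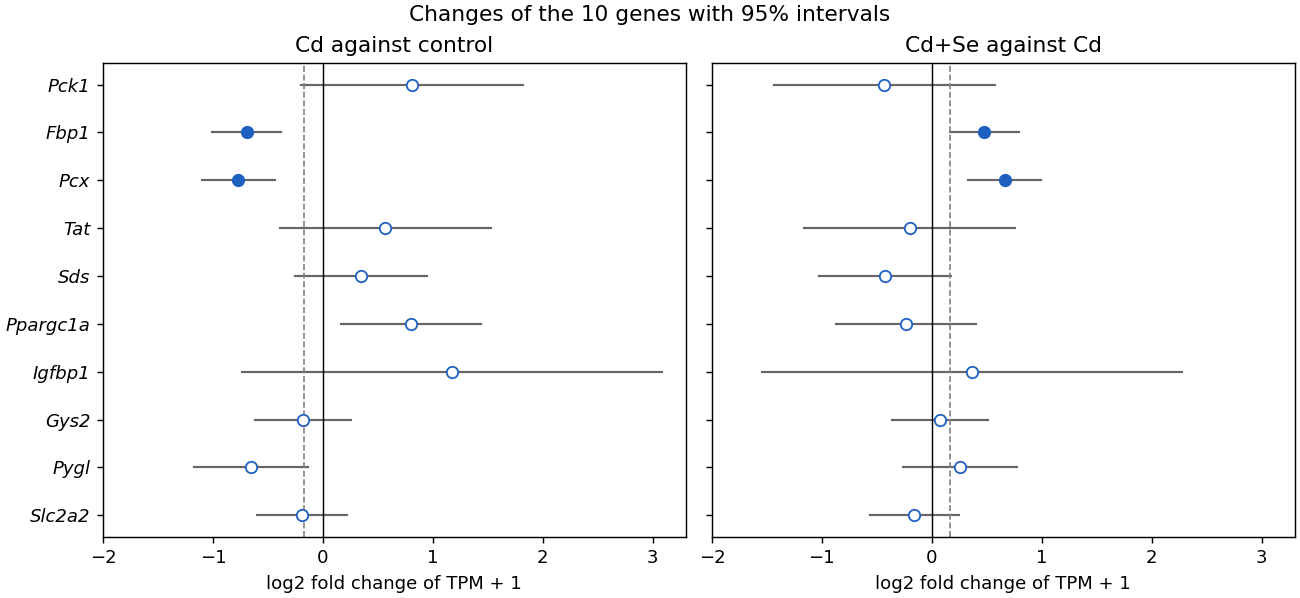
Log2 fold change of TPM + 1 with 95% intervals for the 10 genes in Cd against control (left) and Cd+Se against Cd (right), from the model of 4 groups. Filled points passed a limma adjusted p of 0.05, and dashed lines mark the median of all genes tested (-0.17 and 0.17). Fbp1 and Pcx passed in both comparisons, lower in Cd and higher in Cd+Se.

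The comparison of Cd+Se with Cd asked how mice injected with Cd differed with and without the SeMet diet. Pcx and Fbp1 rose, so 2 of 10 genes were called, against 15.9% of all genes (13.6% higher). Pcx was at 89.8, 96.6, 116 and 74.9 TPM in the Cd+Se mice, wholly above the Cd mice, as were 16.1% of all genes. Its log2 fold change was 0.66 (SE 0.157, limma adjusted p = 0.0149), and it was 0.51 without mouse 5 (0.0386). Fbp1 was at 617, 828, 693 and 683 TPM, and mouse 13 lay within the Cd range. Its log2 fold change of 0.48 (SE 0.148, limma adjusted p = 0.0393) missed the threshold when any 1 of 5 mice was left out, namely mouse 2 (0.0674) or 5 (0.109) of the Cd group, or mouse 14 (0.119), 15 (0.0662) or 16 (0.0653) of the Cd+Se group. The call of Fbp1 was also lost with no filter and after centring. Over 16 alternative settings its log2 fold change ran from 0.28 to 0.58, with a limma adjusted p of up to 0.144. In a model of these 2 groups alone 0 of the 10 genes and 0.561% of all genes passed. The limma adjusted p was then 0.0817 for Pcx and 0.131 for Fbp1. Cd against control and Cd+Se against Cd share the Cd mice, so their opposite signs are not independent of each other.

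The other 8 genes did not pass in Cd+Se against Cd. Sds, at 369, 147, 243 and 109 TPM in the Cd+Se mice, passed there only without mouse 13 (-0.73, limma adjusted p = 0.0482). The Cd+Se mice spread more widely than any other group in Pck1, Tat and Igfbp1. Pck1 was at 1710.1, 237, 1907 and 931 TPM in mice 13, 14, 15 and 16, and Tat at 909.8, 206, 1957 and 628. Igfbp1 was at 151, 11.7, 763 and 24.1 TPM in the same mice. Mice 13 and 15 were high and mouse 14 was low in all 3 genes, and mouse 14 held the lowest Pck1 and Tat values of all 16 mice. Ppargc1a (3.80, 1.79, 6.67 and 1.76 TPM) was also high in mice 13 and 15. Because of this spread the 95% interval of the log2 difference ran from -1.44 to 0.57 for Pck1 and from -1.54 to 2.28 for Igfbp1, so changes of either sign are within it.

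Across the diet, Cd+Se against Se and the interaction asked whether Cd acted differently in mice on SeMet. Neither called any of the 10 genes (limma, 0.714% and 1.04% of all genes called). At an unadjusted p under 0.05 they held 1 gene (Igfbp1) and 2 genes (Pcx and Fbp1), against 10.9% and 21.3% of all genes, so these counts are near the background. The interaction of Pcx was 0.95 (SE 0.222, limma adjusted p = 0.0508): Cd mice were lower than control by 0.77 on the log2 scale, whereas Cd+Se mice differed from Se mice by 0.18 (95% interval -0.16 to 0.51). It lay between 0.0167 and 0.0473 under 4 alternatives, namely quantile normalization, centring, a higher filter and protein-coding genes only, and also passed without mouse 1 (0.0327), 40 (0.0438) or 16 (0.0444). In the other 16 of 23 alternative settings the interaction of Pcx did not pass, with a limma adjusted p of up to 0.116 (0.0598 without mouse 5). The interaction of Fbp1 was 0.59 (SE 0.209, limma adjusted p = 0.131). Igfbp1 was 2.22 higher on the log2 scale in Cd+Se than in Se (SE 0.900, limma adjusted p = 0.355), and this difference was 1.13 without mouse 15 and 3.10 without mouse 14. Pck1 was called in this comparison only without mouse 14 (1.39, limma adjusted p = 0.0424).

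SeMet alone called 0 of the 10 genes, and 0% of all genes passed in Se against control (limma), with 0 of the 10 and 454 of all genes at an unadjusted p under 0.05. Among the Se mice, Pck1 was at 918, 502, 599.8 and 339.5 TPM and Igfbp1 at 41.4, 18.2, 10.2 and 7.53 in mice 39, 40, 41 and 44. Mouse 39 was the highest in both genes, and the Se mice overlapped control in both. Cd+Se against control also called 0 of 10 (limma, 0.484% of all genes), with 0 of the 10 and 10.9% of all genes at an unadjusted p under 0.05. There Slc2a2 was at 90.4, 119, 101 and 120.4 TPM in the Cd+Se mice, wholly below control as were 4.98% of all genes, with a log2 fold change of -0.35 (95% interval -0.76 to 0.06, limma adjusted p = 0.536).

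The wide spread within groups was shared between some genes. Correlations of log2(TPM + 1) over the 16 mice were computed for all 45 pairs of the 10 genes, a step chosen after the values were seen, with 100000 permutations and adjustment over the pairs. After each value was centred on its group mean, Pck1 and Tat gave r = 0.94 (permutation p = 6e-05, adjusted 0.00225) and rho = 0.87 (permutation p = 0.00068, adjusted 0.0153). Without mice 14 and 15, the farthest from the median of Pck1, r was 0.87. Uncentred, r was 0.91 (permutation p = 1e-05, the smallest these draws can give, adjusted 0.00045). Pygl and Slc2a2 gave a centred r of 0.81 (permutation p = 0.0001, adjusted 0.00225) and rho of 0.87 (permutation p = 0.00012, adjusted 0.0054), and r was 0.80 without mice 5 and 14. These were the only 2 pairs of 45 whose centred r passed 0.05 after adjustment. For Pck1 and Igfbp1 the centred r of 0.81 did not pass (permutation p = 0.0392, adjusted 0.252) and it was 0.58 without mice 14 and 15.

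**Figure D3:**
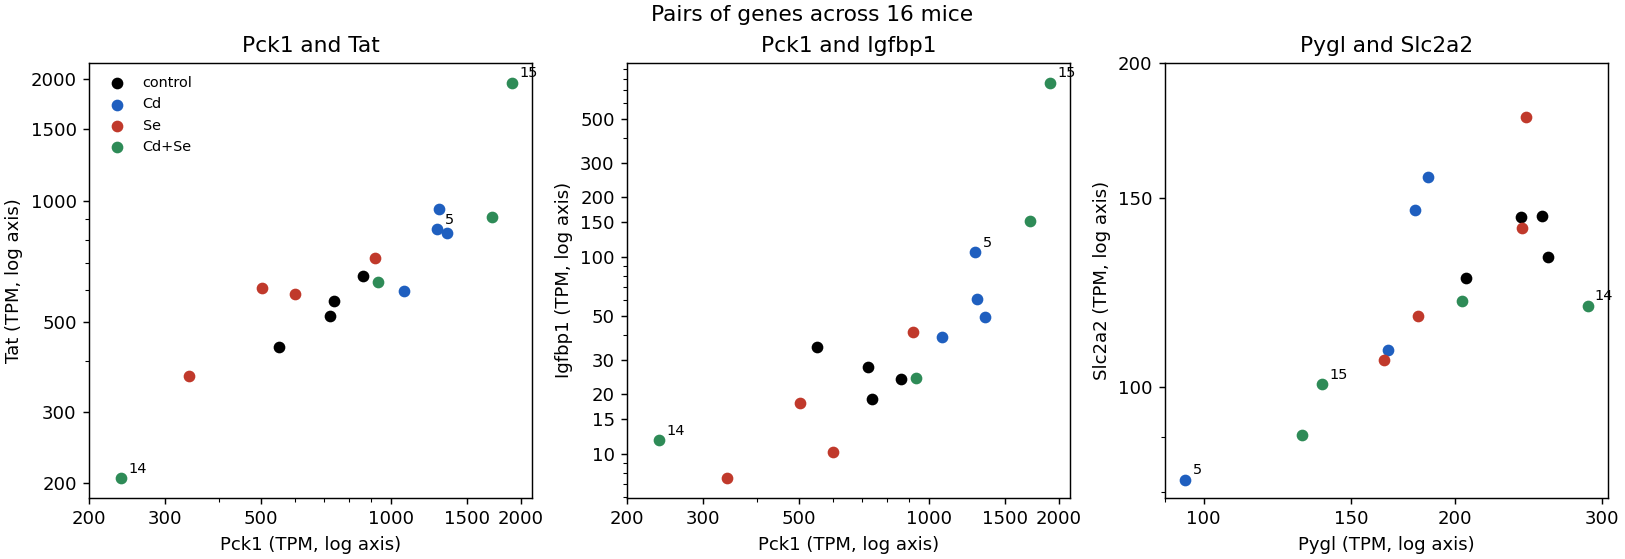
Pck1 against Tat, Pck1 against Igfbp1 and Pygl against Slc2a2 in TPM (log axes), 1 point per mouse coloured by group, with mice 5, 14 and 15 numbered. Pck1 and Tat line up within groups as well as across them, and mice 14 and 15 of the Cd+Se group mark the ends.

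Genes outside the set with the most similar pattern were found by Pearson r of log2(TPM + 1) over the 16 libraries, as a description with no test. They were Klf15 (0.856) and Irf2bp2 (0.854) for Pck1, Pim3 (0.866) for Tat and Fbf1 (0.940) for Igfbp1. Sdha, a subunit of succinate dehydrogenase, was nearest to Fbp1 (0.949) and Extl2 to Pcx (0.954). Iffo2 (0.957) and Pklr (0.950), the liver pyruvate kinase, were nearest to Pygl, Khk (0.912), the fructokinase, to Slc2a2, Lpin2 (0.924) to Ppargc1a, Vamp4 (0.892) to Gys2 and Got1 (0.857) to Sds. All these points share libraries and scaling.

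The neighbouring enzymes of the path were written as a list of 24 without the members, and those that passed the test in Cd against control were all lower. Of the 23 tested 0 rose and 9 fell (24.9% of all genes were lower), with a median log2 fold change of -0.38 (all genes, -0.17). The 9 became 12 after quantile normalization and 5 after centring, whereas the 2934 of all genes that fell became 2276 and 1804. G6pc, the catalytic subunit of glucose-6-phosphatase that releases free glucose, was at 422, 451, 559 and 367 TPM in control mice and at 147, 181, 160.2 and 220.2 in Cd mice. The groups did not overlap, and the log2 fold change was -1.34 (SE 0.417, limma adjusted p = 0.0237). This call was lost without mouse 28 (0.0504) or 29 (0.0673) of the control group or mouse 1 (0.0522) or 5 (0.0614) of the Cd group, and also after centring (0.0609) and with no filter (0.0727). Slc37a4, the transporter that brings glucose 6-phosphate to that enzyme, fell from 114 ± 11.5 to 66.6 ± 11.4 TPM (SD, n = 4, log2 fold change -0.78, limma adjusted p = 0.00121), and Pgk1, phosphoglycerate kinase, from 194 ± 29.8 to 105 ± 14.2 (-0.87, limma adjusted p = 0.000359).

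In the Cd+Se mice G6pc stood at 144, 149, 302 and 179 TPM, 0.08 above Cd on the log2 scale (SE 0.417, limma adjusted p = 0.920), and at 482, 209, 78.5 and 91.8 TPM in the Se mice, which overlapped both control and Cd. Against control its log2 fold change was -1.26 in Cd+Se (limma adjusted p = 0.250) and -1.43 in Se (1), neither of which passed. In Cd+Se against Cd 3 of the 23 enzymes rose, near the 13.6% of all genes that did, and 0 fell. The 3 were Pgk1 (0.50, limma adjusted p = 0.0194), Gpt2 (0.56, 0.0252) and Slc37a4 (0.46, 0.0404). In the model of 2 groups 0 of the 23 passed (0.561% of all genes), and after centring 1 rose and 1 fell (18.8% of all genes called). Centred log2 fold changes were 0.31 for Pgk1 (limma adjusted p = 0.0442), 0.37 for Gpt2 (0.0905) and 0.26 for Slc37a4 (0.110). Of 16 alternative settings, 3 lost the call of Pgk1, 5 that of Gpt2 and 8 that of Slc37a4. Without mouse 5 none of the 23 passed, against 6.52% of all genes, with values of 0.0584 for Pgk1, 0.0818 for Gpt2 and 0.124 for Slc37a4. In Cd+Se against control 1 enzyme of the list fell, against 0.17% of all genes. It was Slc25a10, a mitochondrial dicarboxylate carrier (-0.49, limma adjusted p = 0.0368).

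**Figure D4:**
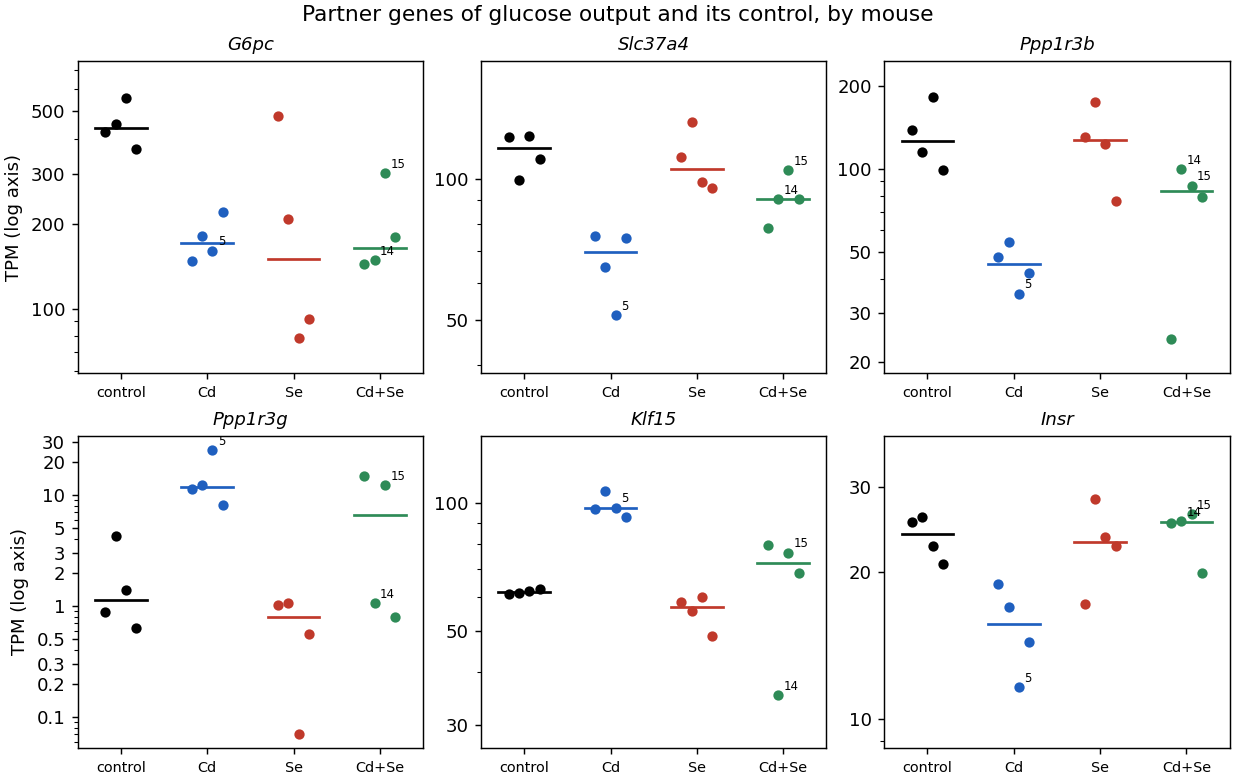
Levels in TPM (log axes) of G6pc, Slc37a4, Ppp1r3b, Ppp1r3g, Klf15 and Insr in the 4 groups, 1 point per mouse and a bar at the group median, with mice 5, 14 and 15 numbered. G6pc, Slc37a4, Ppp1r3b and Insr were wholly below control in Cd and Ppp1r3g and Klf15 wholly above it, and the Se mice ranged widely in G6pc.

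In the glycogen list 2 of 21 tested genes rose and 3 fell with Cd (5.82% and 24.9% of all genes), with a median of -0.22. The 2 that rose became 4 after quantile normalization and after centring and 1 in the model of 2 groups. Of all genes 685 rose, and 1710, 2260 and 747 in these settings. Of the 3 tested subunits that tether protein phosphatase 1 to glycogen, 1 fell, 1 rose and Ppp1r3c did not pass (-0.72, limma adjusted p = 0.182). Ppp1r3b, the main one of liver, fell from 133 ± 36.1 to 45.0 ± 8.20 TPM (SD, n = 4, log2 fold change -1.53, SE 0.355, limma adjusted p = 0.00508). Ppp1r3g rose from 1.80 ± 1.69 to 14.3 ± 7.63 TPM (2.50, SE 0.619, limma adjusted p = 0.00723). Its Cd+Se mice were at 14.9, 1.06, 12.2 and 0.80 TPM in mice 13, 14, 15 and 16, so mice 13 and 15 were high and mice 14 and 16 low. Pgm1, phosphoglucomutase, fell by 0.62 on the log2 scale (limma adjusted p = 0.00506), whereas Phkg2 rose by 0.34 (0.0398). The call of Phkg2 was lost with no filter (0.0616), in the model of 2 groups (0.0595), and without mouse 27 (0.0936), 28 (0.0811), 29 (0.0635), 30 (0.0670), 1 (0.0745), 2 (0.0674) or 6 (0.119).

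Among 17 tested genes of glucose uptake and glycolysis 1 rose and 2 fell with Cd (5.82% and 24.9% of all genes), with a median of -0.17, like that of all genes. Gckr rose (0.59, limma adjusted p = 0.00395) and fell in Cd+Se against Cd (-0.53, 0.0175), where the model of 2 groups lost the call (0.0825). Pdk2 and Pdha1 fell. Pkm was the 1 gene of the list that rose in Cd+Se against Cd (0.71, limma adjusted p = 0.0222), and it missed the threshold without mouse 5 (0.0759) or 14 (0.0502), after quantile normalization (0.0568) or centring (0.0549), with no filter (0.0552) and in the model of 2 groups (0.0977).

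Hormone receptors and regulators changed in both directions: of 33 tested, 4 rose and 11 fell with Cd (5.82% and 24.9% of all genes), with a median of -0.21 (all genes, -0.17). The 4 that rose became 7 after quantile normalization, 8 after centring and 2 without mouse 5. Of all genes 685 rose, and 1710, 2260 and 682 in these settings. The insulin receptor gene Insr fell from 23.7 ± 2.44 to 15.5 ± 3.15 TPM (SD, n = 4, log2 fold change -0.60, limma adjusted p = 0.0104), and Pik3r1, a regulatory subunit of PI3-kinase, fell by 1.27 (0.000877). Creb3l3 (-0.98, limma adjusted p = 0.000234) and Ppara (-1.15, 0.000479), transcription factors of the fasted liver, fell too, as did the glucocorticoid receptor gene Nr3c1 (-0.71, 0.00217) and Hnf4a (-0.81, 0.00174). Klf15, a factor that promotes use of amino acids for glucose, rose from 61.9 ± 0.742 to 98.7 ± 5.92 TPM (0.66, limma adjusted p = 0.0141). Trib3 (0.79, limma adjusted p = 0.00666), Nr4a1 (1.69, 0.0366) and Nr0b2 (0.60, 0.0477) rose too. Nr4a1 lost the call in 7 of 15 alternative settings and Nr0b2 in 9 of 16. The glucagon receptor gene Gcgr (0.11, limma adjusted p = 0.453) and Cebpb (0.07, 0.876) did not pass. Foxo1 passed (-0.43, limma adjusted p = 0.0449), and lost the call in 10 of 16 alternative settings, among them quantile normalization (0.228), and without mouse 27 (0.0951), 28 (0.0856), 29 (0.0968), 30 (0.0558), 2 (0.0622), 5 (0.139) or 6 (0.0613).

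In Cd+Se against Cd 7 of the 33 regulators rose and 2 fell (13.6% and 2.35% of all genes). Without mouse 5 these counts were 2 and 1 (591 and 176 of all 11766 genes). In the model of 2 groups they were 1 and 0 (47 and 19 of all genes). After centring 5 rose and 5 fell (937 and 1272 of all genes). Ppara rose by 0.90 (limma adjusted p = 0.00787) and Creb3l3 by 0.57 (0.0149), and both kept the call without mouse 5, but Creb3l3 lost it after centring (0.0802) and in the model of 2 groups (0.0828). Insr rose by 0.63 (limma adjusted p = 0.0185), which missed the threshold without mouse 5 (0.0584) or 14 (0.0541) and in the model of 2 groups (0.0734). Klf15 fell by 0.66 (limma adjusted p = 0.0273), which missed it without mouse 2 (0.0559) or 5 (0.0646), with no filter (0.0645) and in the model of 2 groups (0.115). Nr0b2 fell as well (-0.81, limma adjusted p = 0.0243), and lost the call in 5 of 16 alternative settings.

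Of the 23 genes of amino acid catabolism beside Tat and Sds, 0 rose and 7 fell with Cd, with a median of -0.20, near the 24.9% and the -0.17 of all genes. The 7 became 3 after centring, when 1 rose (1804 of all genes fell and 2260 rose after centring). The 7 included Prodh (-0.81, limma adjusted p = 0.00121), Gstz1 (-0.60, 0.00199), Aass (-0.71, 0.00226) and Kmo (-0.53, 0.00747), which break down proline, tyrosine, lysine and tryptophan.

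**Figure D5:**
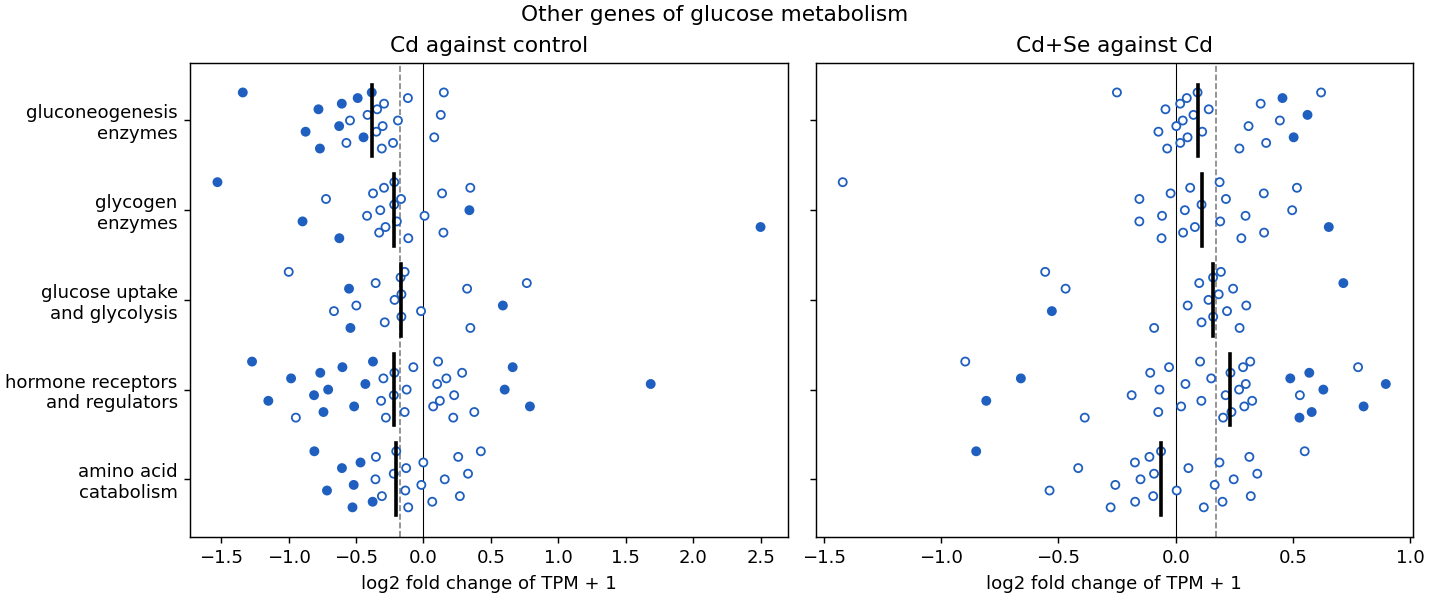
Log2 fold change of TPM + 1 for the tested genes of 5 lists in Cd against control (left) and Cd+Se against Cd (right), 1 point per gene, filled where the limma adjusted p was under 0.05. Thick lines mark list medians and dashed lines the median of all genes tested. The gluconeogenesis enzymes had the lowest list median in Cd (-0.38).

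Markers of zones and of other cells moved with Cd as well. Gluconeogenesis is a task of periportal hepatocytes, and of 8 periportal markers 0 rose and 3 fell (Cps1, Cyp2f2 and Pigr, list median -0.43, against 24.9% of all genes lower), with Cps1 at -1.36 on the log2 scale (limma adjusted p = 0.000169). Their summed level was 5306 ± 309.7 TPM in control, 3736 ± 453 in Cd and 4364 ± 612 in Cd+Se (SD, n = 4), led by Ass1. Of 8 pericentral markers 2 rose (Lect2 and Rhbg) and 2 fell (Slc1a2 and Cyp2c29), with a list median of 0.01 (all genes, -0.17). Their summed level was also lower in Cd, at 4801 ± 365 TPM against 5911 ± 323 in control, with no overlap. This sum was led by Cyp2e1, at 3180 to 3957 TPM in the Cd mice. The 9 hepatocyte markers summed to 78189 ± 8858 TPM in control and 59179 ± 13759 in Cd, and these groups overlapped. All 7 Kupffer cell markers fell (summed level 148 ± 14.4 TPM in control, 60.9 ± 11.6 in Cd), 3 of 4 tested leukocyte markers rose (S100a8, S100a9 and Ccr2, with the 8 listed genes summing to 17.7 ± 5.70 TPM in control and 41.3 ± 4.36 in Cd), and 0 of 5 erythroid markers changed. No marker gene was at 0 in all mice. The part of these shifts in the values of the 10 genes was not tested.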

How the data were processed

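Liver RNA from 16 mice, 4 per group, was measured by poly(A) RNA-seq. RNA was extracted with TRIzol, and libraries were made and sequenced by a company. The authors deposited 1 table of TPM values, and the submitters' processing notes name fastp, HISAT2 and StringTie, and a human build, GRCh38, although the gene identifiers are mouse. TPM keep no read depth, so the depth is unknown, and precision rests on the 4 mice per group. Nothing in the sources used here says which mice shared a cage or litter. Titles list 2 repeats for a mouse, and its single column was counted once.

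Groups were taken from the treatment label of each sample. Genes averaging 1 TPM or more (11766 of 57010) were compared as log2(TPM + 1) with limma 3.58.1 in R 4.3.3, in 1 model of 4 group means with eBayes and an intensity trend. P-values were adjusted by Benjamini-Hochberg over all genes tested, with a threshold of 0.05. There were 6 comparisons: each treated group was set against control, Cd+Se also against each single treatment, and the interaction was (Cd+Se minus Se) minus (Cd minus control). Correlations and their permutations were run with numpy 2.4.6, with ranks from scipy 1.17.1. The limma fit was tested on simulated data in which the spread of a gene was the same in every group. The correlations were not tested in this way.

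The 10 genes and 16 gene lists were chosen with earlier results of these data known. Named are all 10 genes, Mt1 and Mt2, up to 4 genes per list, comparison and direction with the smallest adjusted p, and G6pc, Foxo1, Insr, Gcgr, Nr3c1 and Cebpb always. Some genes that this rule would name are not reported here. Alternatives were a pseudocount of 0.1, no filter, a mean of 5 TPM, quantile normalization, centring on library medians, eBayes without trend, protein-coding genes, only the groups compared, a log2 fold change of at least 1, and each mouse of the groups compared left out. Counts for lists under other settings and the correlations were added after the data were seen.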

Additional observations from a re-analysis of the deposited data

Results flagged for a closer look

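Of 40 sets of 4 mice (10 genes in 4 groups) 1 held a mouse far from the others, where chance gives about 2. Gys2, the liver glycogen synthase gene, was at 209, 213 and 212.95 TPM in mice 39, 40 and 44 of the Se group and at 161 in mouse 41, so that the gap to mouse 41 took up 0.930 of the group's range, past the 95% limit of Dixon's test for 4 samples.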

How the results depend on the processing

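Each result was recomputed in up to 23 alternative settings, and of 1024 recomputed values 958 kept both direction and side of the threshold, 9 lost and 22 gained a call, and 35 changed sign, 0 of them while called. Shares in brackets are of all genes tested in a setting. In Cd against control 2 of the 10 genes were called (30.8%). The count became 4 after quantile normalization (33.9%) and with protein-coding genes (33.6%). It became 3 after centring and with a mean of 5 TPM (34.5% in both). It was 7 in the model of the 2 groups (30.3%) and 2 to 3 when mice were left out in turn (22% to 31.3%). When a log2 fold change of 1 was also asked for, it was 0. In Cd+Se against Cd 2 were called (15.9%), which became 1 with no filter (4.05%) and after centring (18.8%). The count was 0 in the model of the 2 groups (0.561%) and 0 with the fold change of 1. It was 1 to 3 when mice were left out in turn (6.05% to 18%). The interaction called 0 (1.04%). It called 1 (Pcx) with a mean of 5 TPM (1.58%), after quantile normalization (4.45%), after centring (6.21%) and with protein-coding genes (1.68%). With mice left out it called 0 to 1 (0.017% to 2.96%). Cd+Se against Se called 0 (0.714%), and 0 to 1 with mice left out (0.238% to 1.64%).

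Signs turned only for differences that were not called. Quantile normalization gave Pck1 0.066 in the interaction. Centring gave 0.036 for Gys2 and 0.030 for Slc2a2 in Cd against control, -0.12 for Gys2 in Cd+Se against Cd and -0.12 for Sds in the interaction. With mice of the groups compared left out in turn, log2 differences ranged in Cd against control from -0.31 to 0.032 (Gys2). In Cd+Se against Cd they ranged from -0.78 to 0.22 (Pck1), -0.70 to 0.38 (Tat), -0.73 to 1.24 (Igfbp1) and -0.14 to 0.22 (Gys2). In Cd+Se against control they ranged from -0.13 to 0.95 (Tat), -0.38 to 0.20 (Sds) and -0.22 to 0.037 (Gys2). In Se against control they ranged from -0.077 to 0.25 (Tat), -0.011 to 0.30 (Ppargc1a) and -0.18 to 0.066 (Slc2a2), and for Tat in Cd+Se against Se from -0.18 to 0.90. In the interaction they ranged from -0.43 to 0.58 (Pck1), -0.75 to 0.33 (Tat), -0.24 to 0.35 (Sds), -0.048 to 1.92 (Igfbp1), -0.35 to 0.017 (Gys2) and -0.30 to 0.023 (Slc2a2). The causes were not tested.

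Scaling moved the balance of all calls. The share of calls that were lower was 81.1% in Cd against control, 57.1% after quantile normalization and 44.4% after centring. It was 14.7%, 43.7% and 57.6% in Cd+Se against Cd and 13.1%, 37.4% and 56.9% in the interaction, and centring moved the median of all genes in Cd against control from -0.17 to 0.05. The 9 gluconeogenesis enzymes that fell were 12 after quantile normalization and 5 after centring, and the 4 regulators that rose were 7 and 8. No paired analysis was possible because mouse numbers are not shared between groups.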

Other observations

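Lists of glucocorticoid and clock genes, whose products also act on hepatic glucose output, were read in the same comparisons. Of 12 glucocorticoid response genes 1 rose with Cd (Mt2) and 2 fell (Fkbp5 and Errfi1), against 5.82% and 24.9% of all genes. Fkbp5, a chaperone gene induced by glucocorticoids, was at 33.1, 22.2, 27.6 and 21.8 TPM in control mice and at 11.3, 11.3, 7.97 and 9.82 in Cd mice (log2 fold change -1.28, limma adjusted p = 0.0221), and the groups did not overlap. This call was lost without mouse 27 (0.0602), 29 (0.0531) or 5 (0.0664) and with no filter (0.0680). In the Cd+Se mice Fkbp5 was at 20.2, 16.8, 87.0 and 26.0 TPM, all above the Cd mice (1.48, limma adjusted p = 0.0216, but 0.0703 without mouse 5, 0.0626 with no filter and 0.0804 in the model of 2 groups), and mouse 15 was the highest, as it was for Pck1, Tat and Igfbp1.

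Of 11 tested clock genes 1 rose with Cd and 3 fell (Hlf, Cry1 and Per2), near the 5.82% and 24.9% of all genes. Nr1d1, which encodes the repressor REV-ERBα, was at 7.32, 15.7, 9.64 and 13.8 TPM in control mice and at 56.2, 43.99, 24.7 and 29.01 in Cd mice (1.63, limma adjusted p = 0.00145). It was at 16.5, 11.6, 6.70 and 11.7 TPM in the Cd+Se mice, wholly below the Cd mice (-1.63, limma adjusted p = 0.00635), and both calls held in all 16 alternative fits.

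Of the other marker lists, 1 of 9 hepatocyte (Serpina1c), 2 of 6 endothelial (Stab2 and Kdr) and 1 of 5 stellate cell markers (Reln) fell with Cd (24.9% of all genes were lower), and 0 of 1 tested cholangiocyte marker changed. The Cd+Se mice held 73.5 ± 20.3 TPM of summed Kupffer cell markers and 60.3 ± 15.98 TPM of leukocyte markers (SD, n = 4).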
